A study of Delphinapterus leucas with 24 samples.

Results

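Blood of free-ranging beluga whales (Delphinapterus leucas) sampled at northern sites in Bristol Bay, Alaska, was compared with blood sampled at southern sites in the same bay. All 24 libraries of the series entered the comparison, 15 from the north and 9 from the south. A library was southern where its labelled latitude lay from 58 to just under 59 degrees and northern where it was 59 or more. The labelled southern latitudes ran from 58.59 to 58.96 degrees and the northern ones from 59.01 to 59.06 degrees. Another 2 northern libraries, both of 2014, are labelled 50.05 degrees, which lies outside the bay and was read as a typing error for 59.05, since their labelled longitudes fall among those of the other northern libraries. South replicates 1 and 2 carry the same longitude and latitudes of 58.59 and 58.95 degrees, so 1 of these values may also be mistyped, although both are southern. Every library is whole blood from an animal labelled male or female, and no treatment, age or genotype is given. The north held 4 libraries in 2012, 7 in 2013 and 4 in 2014, and the south held 4, 1 and 4. The study itself set out to compare sexes and years, and site is a label of its samples.

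Whole blood carries red cells, platelets and several kinds of white cells, and in mammals the circulating red cells have no nucleus, so that their RNA is what young cells still hold from the marrow. White cell RNA responds within hours to capture and handling, infection, feeding and time of day, and the mix of cells differs between animals. In bulk blood, fewer cells of a type and less RNA per cell cannot be told apart. The features measured here are transcripts assembled from the reads, and of the 45872 listed, 14079 could be placed under 9855 Entrez Gene IDs. No symbol stands beside an ID in the files, so genes are given by ID alone, without a name or a function. For the same reason the tissue could not be checked against marker genes, and lists of immune, red cell, stress, metabolic and contaminant-response genes were not analysed here.

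Site went together with the day of sampling. Southern animals were sampled on days 253 to 256 of the year in 2012 and northern ones on days 245 to 252, so the sites shared no date that year. In 2014 the southern days were 240 to 246 and the northern days 237 to 241, and the single southern library of 2013 came from day 242, the last northern day of that year. Within a year the southern libraries were later by 4.95 days on average (exact two-sided permutation of sites within years, 39200 assignments, p = 0.000281, adjusted p = 0.00168 over 6 library measures). Libraries of 1 date share their day, yet the test counts each library singly, so its p may be too small. In 2012 the 4 northern libraries came from 2 dates and the 4 southern ones from 3. Of 15 sampling dates only 2 hold both sites, with 4 libraries, and on each the southern animal was a female and the northern one a male. The correlation of site with day within years was 0.686, described over 24 libraries.

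**Figure D1:**
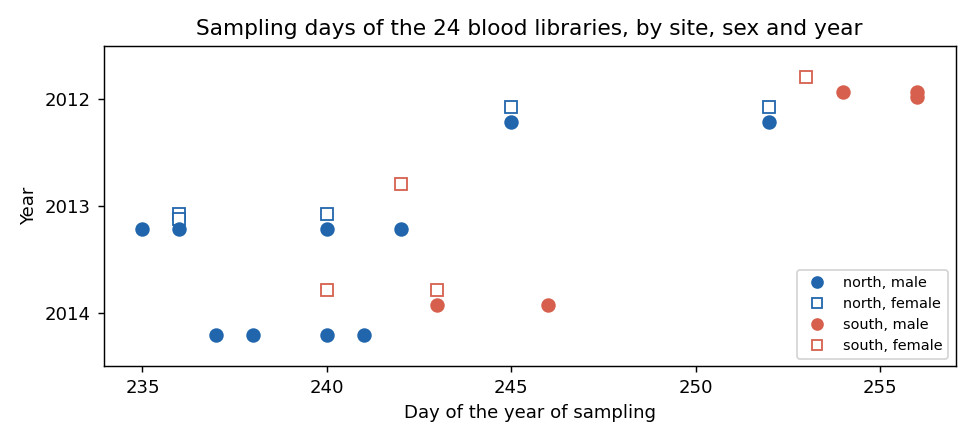
Day of the year (horizontal axis) on which each of the 24 libraries was sampled, in 1 row per year, with filled circles for males, open squares for females, blue for northern and red for southern sites. Southern points lie mostly to the right, without overlap in 2012, where northern days end at 252 and southern days begin at 253. In 2013 the only southern point shares day 242 with a northern one. In 2014 southern days begin at 240 and northern days end at 241.

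Sex was also spread unevenly between the sites. The north held 10 males and 5 females, and the south held 5 males and 4 females. In 2012 the south had 3 males and 1 female against 2 males and 2 females in the north. In 2014 the south had 2 males and 2 females against 4 males in the north, where no female was sampled. The only southern animal of 2013 was a female.

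The make-up of the libraries overlapped between the sites. The 3 most abundant assembled features held 25.5% ± 15.1 (SD, n = 15) of the TPM (transcript abundance relative to a fixed total per library) in northern and 26.0% ± 16.9 (SD, n = 9) in southern libraries. The year-adjusted southern minus northern difference of 0.842 percentage points was smaller than either spread (exact permutation p = 0.904, adjusted p = 0.993). In 2012 this share was 10.6%, 11.3%, 15.5% and 54.2% in the 4 northern libraries and 2.72%, 7.27%, 16% and 16.8% in the southern ones. In 2014 it was 21.1%, 24.7%, 26.4% and 43.7% in the north and 25.6%, 36.5%, 40.9% and 54.3% in the south. The southern mean was thus the lower one in 2012, by 12.2 points, and the higher one in 2014, by 10.4 points, with overlapping groups in both years. Without north replicate 1, the library at 54.2%, the 2012 difference was -1.73 points. A test of that change between the years, with sites permuted within years, gave a difference of 22.5 points (exact permutation p = 0.0963, adjusted p = 0.197), which was 12.1 points without that library.

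The number of features listed at 0 showed a like pattern. It was 551 ± 283 (SD, n = 4) in the north and 368 ± 24.2 (SD, n = 4) in the south in 2012. In 2014 it was 474 ± 78.5 (SD, n = 4) in the north and 528 ± 50.4 (SD, n = 4) in the south. The change between the years, 237 features, had an exact permutation p of 0.0449 and an adjusted p of 0.197, and so did not pass the correction. Both 2012 differences include north replicate 1, a male that held 54.2% of its TPM in the 3 features and listed 973 features at 0. Without it the 2012 difference in features at 0 was -41.5, the change between the years 96.2, and the pooled difference moved from -43.1 to 18.1. Median TPM, the share of the 10 most abundant features and the size factor of a library (the median ratio of its values to the average library) had adjusted p-values of 0.993 each for site.

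**Figure D2:**
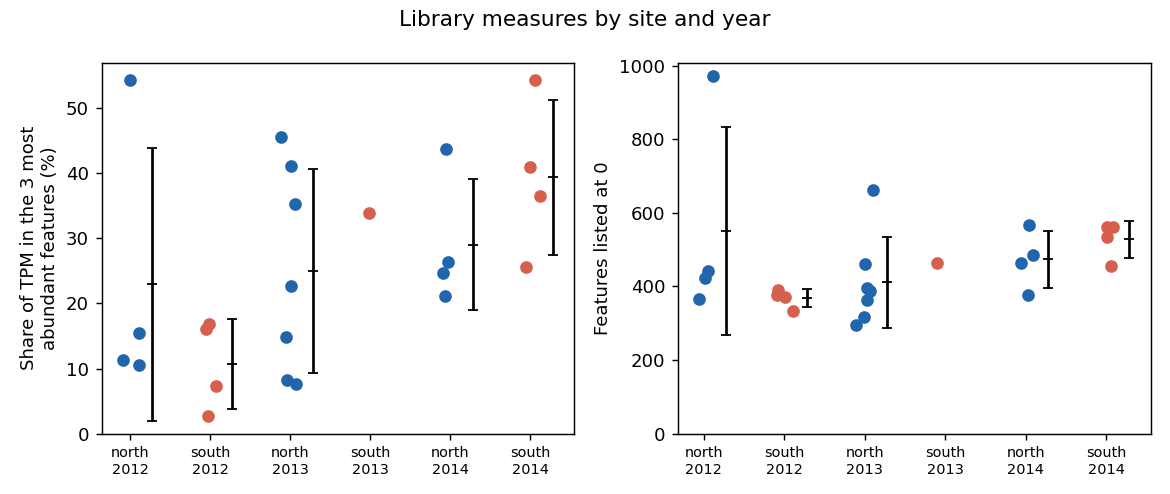
TPM share of the 3 leading features (left, percent) and number of features listed at 0 (right) in each library, by site and year, with the mean and SD beside each group of more than 1 library. Sites overlap in every year that holds several libraries of each, and 1 northern library of 2012 stands apart at 54.2% and 973 features.

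Libraries from the same site were about as alike as libraries from different sites. Over IDs, the mean Spearman correlation between libraries of the same year was 0.968 in 45 pairs from the same site, ranging from 0.936 to 0.986. It was 0.970 in 39 pairs from different sites, ranging from 0.919 to 0.985. The difference of -0.00243 lay within what permuting sites within years gave (exact permutation p = 0.474, two-sided).

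No gene was called between the sites. TPM were summed per Entrez Gene ID and divided by each library's size factor, and 9853 IDs at 1 scaled TPM or more in at least 8 libraries were tested with limma as log2(scaled TPM + 1) with year in the model. At a Benjamini-Hochberg adjusted p under 0.05 there were 0 calls, or 0% of the IDs tested, and the smallest adjusted p was 0.665. At an unadjusted p under 0.05 there were 721 IDs, or 7.32% of those tested, of which 360 (3.65%) were higher and 361 (3.66%) lower in the south. limma without the trend option also called 0, with 702 at an unadjusted p under 0.05.

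The intervals show how large a difference these libraries leave room for. Regardless of sign, the southern minus northern difference of an ID had a median size of 0.08 on the log2 scale, against a median SE of 0.10 and a median spread between libraries of the same site and year of 0.23 (residual SD). The 95% interval of an ID reached 0.21 to either side at the median. It lay wholly between -1 and 1, that is within a 2-fold change in either direction on this scale, for 9758 IDs (99%), and between -0.5 and 0.5 for 86% of them. These intervals are per ID and not adjusted for the number of IDs. They come from the fit without sampling day, which goes with site, and with day in the model the median SE was 0.14. At low TPM the added 1 shrinks a difference, so the limits are not fold changes of TPM there. Over all 24 libraries, 0 IDs had every southern library above or below every northern one.

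Values are given for the IDs with the smallest unadjusted p in each direction, 2 per direction, none of which passed the threshold. ID 27189, carried by 1 feature (TR24378|c0_g1), had the lower southern values with the widest gap. In the 15 northern libraries it ran from 1.5 to 6.34 scaled TPM with a median of 2.28, and in the 9 southern libraries from 0.396 to 2.71 with a median of 0.978. Southern libraries thus lay mostly under the northern median, but the groups overlapped, because the southern female at 2.71 and the southern female of 2012 at 2.22 lay among the northern animals. The difference was -0.80 ± 0.19 (SE, 95% interval -1.19 to -0.40, unadjusted p = 0.000336, adjusted p = 0.665 in limma). Since this ID lies near 1 TPM, a log2(value + 1) scale understates its fold, and with a pseudocount of 0.1 the difference was -1.32. With a pseudocount of 1 and sampling day added to the model the difference was -0.83 ± 0.27 (SE).

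ID 220002, carried by TR6935|c0_g1, was the other lower one and lay well above the low range. Northern libraries ran from 51.1 to 87.4 scaled TPM with a median of 75.3, and southern ones from 48.4 to 72.6 with a median of 57.6. In 2012 the 4 southern libraries, at 48.4 to 63.6, were all under the 4 northern ones, at 70.9 to 84.4, whereas in 2014 the sites overlapped. The difference was -0.38 ± 0.09 (SE, unadjusted p = 0.000269, adjusted p = 0.665). With sampling day added to the model it was -0.22 ± 0.12 (SE), so the part of the value that goes with date and the part that goes with site cannot be told apart.

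ID 6334 was the higher one in the south with the largest gap. Its 4 features (TR13418|c0_g1, TR6237|c0_g1, TR8669|c0_g1 and TR9862|c0_g1), at mean TPM of 1.16 to 2.44, all had a higher southern estimate. These lay between 0.26 ± 0.14 (SE, TR8669|c0_g1) and 0.51. The ID was picked on the sum of these features, so their shared direction is partly built in. Northern libraries ran from 2.57 to 10.3 scaled TPM with a median of 5.59, and southern ones from 4.58 to 11.6 with a median of 7.78. In 2014 the 4 southern libraries, at 4.58, 5.46, 5.63 and 7.24, lay above the 4 northern ones, at 2.57, 2.8, 3.06 and 4.56, though the closest pair differed by little. The difference was 0.57 ± 0.15 (SE, unadjusted p = 0.000813, adjusted p = 0.665). With sampling day added to the model the difference was 0.49 ± 0.21 (SE). ID 151195 (TR2883|c0_g1) had a median of 9.29 scaled TPM in the north and 11 in the south, with ranges of 6.34 to 14.4 and 9.19 to 13.7. Its difference was 0.33 ± 0.09 (SE, unadjusted p = 0.00143, adjusted p = 0.665), and the highest library of all was a northern one. With sampling day added to the model the difference was 0.231 ± 0.125 (SE).

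**Figure D3:**
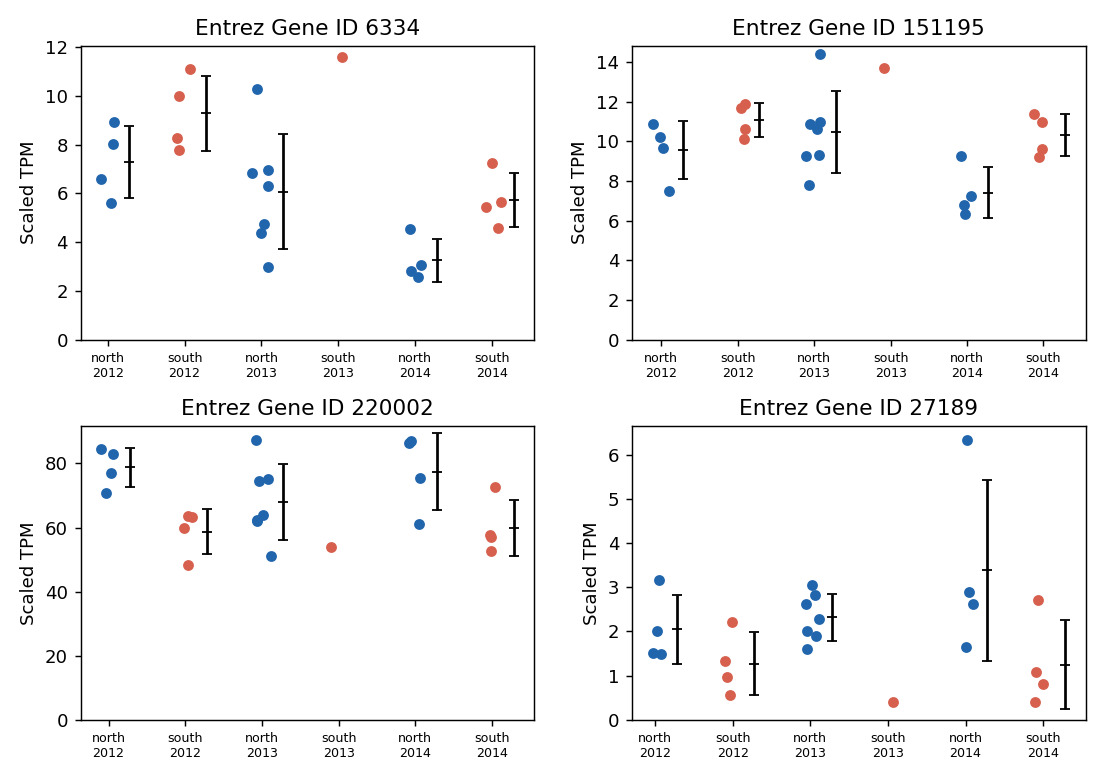
Scaled TPM of the 2 IDs with the smallest unadjusted p in each direction, in each library by site and year, with the mean and SD beside each group of more than 1 library. The pooled northern and southern ranges overlap in all 4 panels, as for ID 27189 with 1.5 to 6.34 in the north and 0.396 to 2.71 in the south.

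Only 2012 and 2014 hold several libraries of both sites, and neither year alone gave a call. With 4 libraries per site, 0 of 9853 IDs (0%) were called in 2012 (smallest adjusted p = 0.112 in limma, 331, or 3.36%, at an unadjusted p under 0.05) and 0 (0%) in 2014 (smallest adjusted p = 0.997, 316, or 3.21%, at an unadjusted p under 0.05). The split of the unadjusted results turned between the years, with 122 higher (1.24%) and 209 lower (2.12%) in the south in 2012 and 204 higher (2.07%) and 112 lower (1.14%) in 2014. In 2012, every southern library lay above every northern one for 72 IDs (0.731%) and below for 120 (1.22%). In 2014 these were 110 IDs (1.12%) and 69 (0.7%). No ID was so separated in the same direction in both years (0 above and 0 below). Of the 70 ways to assign 4 of 8 libraries to the south, 1 gives such a separation in a set direction. The single-year shares, 0.7% to 1.22%, were each smaller than 1 in 70.

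ID 10614 was the 1 ID separated in both years, in opposite directions, and was picked out after its values were seen. In 2012 its southern libraries, at 22.2 to 28.3 scaled TPM, lay above the northern ones, at 19.9 to 21.8. In 2014 its southern libraries, at 15.1 to 21.8, lay below the northern ones, at 22.6 to 24.7. The change of its site difference between the years was -0.49 ± 0.16 (SE), with an unadjusted p of 0.00736 in limma, and did not pass the correction over all IDs. In each year 1 in 70 assignments gives a separation in a set direction. A single ID of this kind among 9853 is thus not more than chance would give.

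The change of the site difference from 2012 to 2014 was tested for every ID with an interaction term over the 16 libraries of those years. It called 0 IDs (0%), with a smallest adjusted p of 1 in limma and 205 IDs (2.08%) at an unadjusted p under 0.05. The median SE of this term was 0.22, about the size of the spread between libraries, and limma without trend also called 0. The site differences of the 2 years rest on separate libraries. Across the 9853 IDs, which share libraries and are not independent, they had a Pearson correlation of 0.10 and a Spearman correlation of 0.22, and the same sign in 59.5% of IDs.

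**Figure D4:**
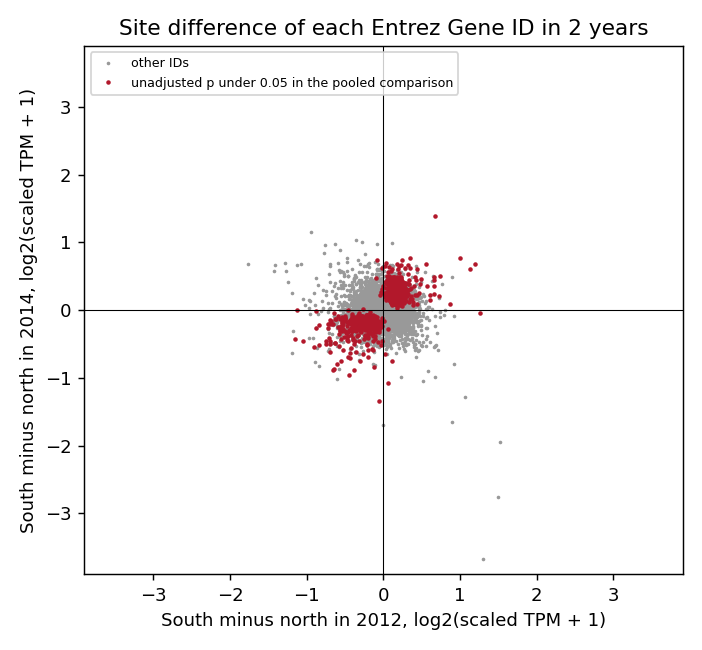
Southern minus northern difference of each ID in 2012 (horizontal axis) and in 2014 (vertical axis), on the log2(scaled TPM + 1) scale, with the 721 IDs at an unadjusted p under 0.05 in the pooled comparison in red, of which 16 differ in sign between the years (the pooled comparison contains both years, so same signs are built in). Most IDs lie near 0 in both years, and a few at the lower right are higher in the south in 2012 and lower in 2014, the farthest at -3.67 in 2014.

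The widest of these opposite differences belonged to IDs that differ between the sexes. ID 7317, the farthest of them, lay between 72.3 and 176 scaled TPM in northern males and between 45.7 and 88.1 in southern males, and at 0.214 or less in every female. Its site difference was 1.30 ± 2.30 (SE) in 2012, when the south held more males than the north, and -3.67 ± 1.45 (SE) in 2014, when the north held males only. With both years and 2013 pooled it was -1.61 ± 1.42 (SE), and with sex in the model -0.33 ± 0.14 (SE). ID 8284, at 26.4 to 49.2 scaled TPM in northern males, 26.9 to 51.2 in southern males and 0.0468 or less in females, went from -1.07 ± 1.2 (SE) to 0.0047 ± 0.11 (SE) once sex was in the model. Among the 16 IDs called between the sexes in this table (0.162% of those tested), site differences ran from -1.61 to 0.32 without sex in the model and from -0.33 to 0.34 with it. With sex in the model the site comparison still called 0 IDs, with 694 at an unadjusted p under 0.05.

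In the scaled values the site difference differed between classes of abundance. IDs share libraries and are not independent, and this was not tested across libraries. Of the 1650 IDs at a mean of 50 scaled TPM or more, 1150 were lower and 500 higher in the south, with a median difference of -0.05. At an unadjusted p under 0.05, 151 of them were lower and 18 higher, together 10.2% of the class. Of the 6643 IDs at 5 to 50 TPM, 174 were lower and 278 higher at that threshold (6.8%), with a median difference of 0.01. Of the 1560 IDs under 5 TPM, 36 were lower and 64 higher (6.41%), with a median of 0.02. The 10 most abundant IDs, at means of 2740 to 166000 scaled TPM, all had a negative difference, between -0.76 and -0.02, and 1 of them was at an unadjusted p under 0.05. Over all IDs tested, 4928 were lower and 4925 higher, 361 and 360 of them at that threshold (7.32%), with a median difference of -4.14e-05.

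The split of the abundant IDs into lower and higher depended on how the libraries were put on 1 scale. On the deposited TPM the median difference over all IDs was 0.06. It was 0.02 at 50 TPM or more, 0.08 at 5 to 50 TPM and 0.07 under 5 TPM. The abundant class thus still lay lowest. Of its 1650 IDs, 726 were lower and 924 higher in the south. At an unadjusted p under 0.05, 12 were lower and 1 higher. After quantile normalisation, which gives each library the same distribution of values, 805 were lower and 845 higher, with 49 and 52 at that threshold. The 10 most abundant IDs were then 5 lower and 5 higher. A near balance among abundant IDs is largely built into that method, so it cannot show whether they differ from the rest. On the deposited TPM 9 of the 10 were lower. Within the scaled values, 7 of the 10 were lower in 2012 alone, 7 in 2014 alone, 7 without the 2 libraries over 50% in the 3 leading features, and 6 with sampling day added to the model. With the share of the 3 leading features in the model all 10 were lower, and with each library left out 8 to 10 were. Within the scaled values the median of the abundant IDs was -0.02 in 2012 and -0.07 in 2014, and lay between -0.06 and -0.04 with each library left out. With sampling day added to the model it was -0.03, and 5 of these IDs were lower and 17 higher at an unadjusted p under 0.05.

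**Figure D5:**
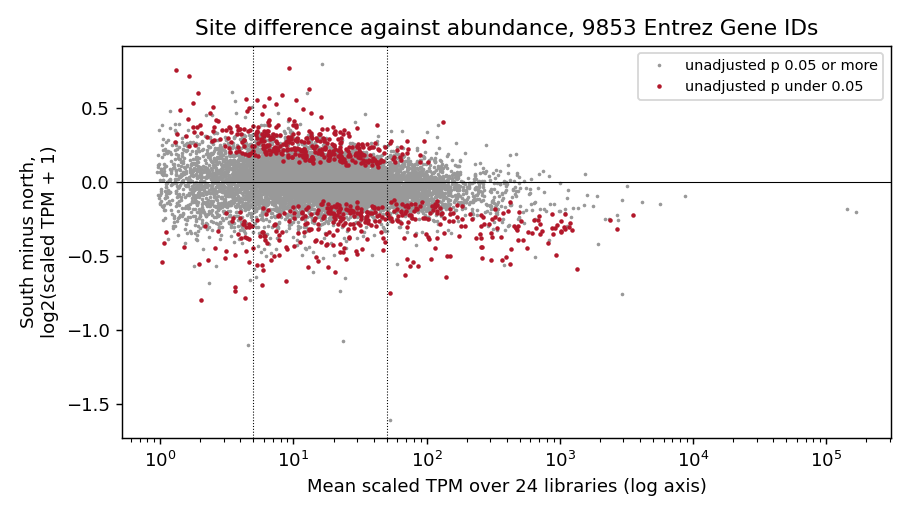
Southern minus northern difference of the 9853 IDs (vertical axis, log2 of scaled TPM + 1) against their mean scaled TPM over the 24 libraries (horizontal axis, log scale), with IDs at an unadjusted p under 0.05 in red and dotted lines at 5 and 50 TPM. To the right of 50 TPM the red points lie mostly below 0, with 151 below and 18 above.

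More IDs had a low unadjusted p for day of the year than for site. In a fit with year and day, without site, 1702 IDs (17.3%) were at an unadjusted p under 0.05 and 1 ID (0.0101%) was called. That ID, 6160, fell by 0.10 ± 0.02 (SE) per day within years on the log2 scale (adjusted p = 0.0345 in limma). Libraries of 1 date share their day, yet this fit counts each library singly, so its p-values for day may be too small. Scaled TPM of ID 6160 in 2012 were 200 to 530 (median 244) in the north and 116 to 198 in the south. In 2014 they were 282 to 381 and 220 to 345. Its site difference, without day in the model, was -0.51 ± 0.16 (SE, adjusted p = 0.665). Of the 721 IDs at an unadjusted p under 0.05 for site, 515 were also under it for day. With both in the model 0 IDs were called for site, 169 were at an unadjusted p under 0.05, of which 47 were among the 721 in the same direction, and the median SE rose from 0.10 to 0.14.

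In the same table and on the same scale, year and sex did give calls. Between 2014 and 2012, with sex in the model, 357 IDs (3.62%) were called, 194 higher and 163 lower in 2014. All 357 were among the 458 IDs (4.65%) called with site also in the model. The site differences of these 357 had a median of 0.02, and 40 of them (11.2%) were at an unadjusted p under 0.05 for site, against 7.32% of all IDs tested. The libraries of 2012 and 2014 enter both comparisons. Sampling day was in neither year model, and it ran from 245 to 256 in 2012 and from 237 to 246 in 2014. Year and day can thus not be told apart in these calls.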

How the data were processed

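Whole blood RNA of 24 samples was extracted with a PAXgene kit and made into strand-directional libraries, per the labels' protocols. The authors assembled a transcriptome with Trinity, per the series' design text. Trimmomatic, Bowtie2 and RSEM 1.2.21 are named, without role or order, in the submitters' processing notes. The deposited values were read as TPM because they are not whole and library totals are close to one another. Library depth is unknown, since TPM does not carry it, and counting intervals are not given. An exact 0 is a listed value.

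TPM were summed per Entrez Gene ID. Features without an ID were left out of the sums, as was 1 whose ID had been turned into a date. Each library was divided by its median ratio to the geometric mean over IDs above 0 in all libraries. IDs at 1 scaled TPM or more in at least 8 libraries were tested with limma 3.58.1 in R 4.3.3 (trend and robust options, year as a factor, pseudocount 1, Benjamini-Hochberg adjustment over 9853 IDs). Library measures were tested by enumerating all assignments of sites within years, adjusted over 6 measures (scipy 1.17.1). Fits and tests were checked on simulated data. Whether libraries of a group came from different animals is not stated beyond their labels, so p-values reflect spread among libraries, which may be technical.

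The comparison, its groups and its gene lists were chosen with earlier results of these data known. The rule for named genes needed symbols and had to be dropped, and the 2 IDs with the smallest p in each direction were named. The comparison of like and unlike sites by Spearman correlation and the split by abundance were chosen after seeing the data. Alternatives were other scalings, filters, pseudocounts, covariates and subsets of libraries.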

Additional observations from a re-analysis of the deposited data

Results flagged for a closer look

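Of 54 groups of 4 to 9 libraries looked at over 5 library measures and the 4 named IDs, 4 had 1 library standing far off at 1 end, against about 1 in 20 by chance. The groups and the measures overlap, and all 4 belong to north replicate 1, a male of 2012, among the 4 northern libraries of that year. The 3 leading features took 54.2% of its TPM, against 10.6% to 15.5% in the other libraries. The 10 leading ones took 62.3%, against 17.7% to 23.3%. It listed 973 features at 0, against 366 to 442, and its log2 size factor was -0.902, against 0.189 to 0.379. Without it the site comparison called 0 IDs, with 532 at an unadjusted p under 0.05.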

How the results depend on the processing

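The count of 0 calls between sites held in all 20 alternatives to the reported fit and with each of the 24 libraries left out, where the smallest adjusted p ran from 0.0763 (male libraries only) to 0.9999 over the alternatives and from 0.25 to 0.933 over the libraries left out. The interaction with year called 0 in 6 alternatives and with each of its 16 libraries left out. The 4 named IDs kept their direction in every such fit that tested them, but not their size. They were picked by their p in the reported fit on these same libraries, so a kept direction is largely built in. In 2012 alone ID 6334 was at 0.32, ID 151195 at 0.20 and ID 27189 at -0.45. With sampling date as a block ID 220002 was at -0.14 and ID 27189 at -1.26. That fit compares the sites on 2 dates with 4 libraries, where each southern animal was a female and each northern one a male. Site and sex cannot be told apart there. With sampling day added ID 220002 was at -0.22, ID 151195 at 0.23, ID 6334 at 0.49 and ID 27189 at -0.83.

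The 721 IDs at an unadjusted p under 0.05 became 107 on the deposited TPM, 169 with day of the year, 335 without a year term and 1183 with library weights. They became 331 in 2012 alone, 316 in 2014 alone, 405 without 2013, 467 with sampling date as a block, which compares sites on 2 dates only, and 2676 of 45751 assembled features. With each library left out the count ran from 394 (without south replicate 5, the only southern library of 2013) to 1054. It was 444 without south replicate 4 and 474 without south replicate 9.

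In 2012 alone the southern minus northern share of the 3 most abundant features was -12.2 points, and in males -10.0, against 0.842 pooled. In 2014 alone median TPM differed by -0.0725, features at 0 by 54.8, the share of the 10 most abundant by 9.19 and the log2 size factor by -0.181, all opposite to the pooled sign. Without the 2 libraries labelled 50.05 the share of the 10 most abundant differed by 0.154 against -0.066 pooled. With each library left out the share of the 3 ran from -1.61 to 5.55, the share of the 10 from -2.47 to 4.66, features at 0 from -63.8 to 18.1 and the log2 size factor from -0.0604 to 0.141. The day difference was 6.25 in 2012 and 4.0 in 2014 with adjusted p-values of 0.171 and 0.48. With the 70 assignments of 8 libraries the smallest p is 0.0286, which 2012 reached with libraries of the same date counted singly. Adjusted over 6 measures it is 0.171 when no other measure reaches it, so a single year could not pass in this way. The cause was not tested.

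Date blocks, leaving out 2013 and leaving out the 2 libraries over 50% were added after the data had been seen. No paired analysis was possible because library numbers do not pair animals between sites. The gene list comparisons could not be made without symbols. With TPM alone, what depth limits cannot be said.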

Other observations

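Features without an Entrez Gene ID, which the sums leave out, were tested as assembled features on their own scaled values. Of 31688 such features 1836 (5.79%) were at an unadjusted p under 0.05 for site, against 840 of 14063 features with an ID (5.97%), and the smallest adjusted p among those without an ID was 0.571 in limma.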
